A study of Mus musculus with 3 samples.

Results

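Scx, Mkx, Tnmd and Six2 are 4 of the 32285 genes counted in single cells of the mouse flexor digitorum longus (FDL) tendon, and each was taken as the feature row that carries its symbol (ENSMUSG00000034161, ENSMUSG00000061013, ENSMUSG00000031250 and ENSMUSG00000024134). The study asked what Scleraxis-lineage cells do in the adult tendon and how their loss compares with natural aging. It made 3 libraries, 1 per group, each from 16 pooled FDL tendons of mice of both sexes. The 6 M DTR library came from Scx-Cre+; DTR F/+ mice, in which Cre driven by the Scx promoter opens an inducible diphtheria toxin receptor in every cell that has ever expressed Scx, so that the lineage and not current expression marks a cell for death. The 6 M WT library came from Scx-Cre-; DTR F/+ littermates, which also carry the DTR allele. Both groups received 5 daily injections of diphtheria toxin (DT), which the study places at 3 months of age, with the harvest 3 months later, at 6 months. The labels instead give an age of 3 months for both groups, and the groups are named here by the age in the study. The 21 M B6 library came from untreated C57/Bl6 mice aged 21 months. The WT tendons were digested for 120 min and the tendons of both other groups for 90 min, so effects of digestion and of genotype or age cannot be told apart, and in 21 M B6 neither can the absence of DT and of the DTR allele.

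Tendon cells descend from progenitors that express Scx, a basic helix-loop-helix transcription factor that dimerises with E proteins and binds E boxes. Mkx (Mohawk) is an atypical homeobox factor needed for the growth of collagen fibrils, and Six2 is a homeobox factor of limb connective tissue. Tnmd (tenomodulin) is a type II membrane glycoprotein, is lost in embryos without Scx and is the usual marker of mature tenocytes. Scx is switched on early and is retained in only part of adult tendon cells, which is why the lineage mark and the transcript are different quantities.

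Sequences of 250 bases before the start of transcription were held for Tnmd and Six2, so 2 of the 4 genes matched, and they are shown because Tnmd is the classical target downstream of Scx and Six2 the member found in a wider range of cells below. They are from RefSeq on GRCm38.p6 and run 5′ to 3′ on the coding strand, at chrX:133850758-133851007 (plus strand) for Tnmd and chr17:85688255-85688504 (minus strand) for Six2.
Tnmd: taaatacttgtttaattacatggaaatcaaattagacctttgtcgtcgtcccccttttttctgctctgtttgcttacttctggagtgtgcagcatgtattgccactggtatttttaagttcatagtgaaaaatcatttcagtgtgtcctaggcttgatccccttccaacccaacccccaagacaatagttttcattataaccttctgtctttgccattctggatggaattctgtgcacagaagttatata
Six2: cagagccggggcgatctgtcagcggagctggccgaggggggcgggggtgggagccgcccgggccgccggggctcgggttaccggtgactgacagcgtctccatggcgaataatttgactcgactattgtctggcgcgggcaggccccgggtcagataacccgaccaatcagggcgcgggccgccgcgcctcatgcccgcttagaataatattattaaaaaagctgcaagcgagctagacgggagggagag
The E box was searched as CANNTG, which reads the same on both strands, and would be in capitals. Neither window holds these letters, while 66.2% of all 32851 promoter windows of the same length do. No chromatin or binding data were measured here, and the sequences are a description only.

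Where 3 values are given together below, they stand for the 6 M WT, then the 6 M DTR and then the 21 M B6 library. The libraries held 15536, 16099 and 12273 barcodes, and 8357, 6554 and 4798 cells passed the filter of 1000 to 5000 genes and at most 10% mitochondrial counts. Median depths of kept cells were 12328 to 13008 unique molecular identifiers (UMIs, counted mRNA molecules). Between 61 and 76 barcodes were shared by any pair of libraries, of which 13 to 15 were kept cells and 2 were tenocyte-like, and leaving them out moved no ratio of the 4 genes beyond its interval. Cells were assigned to classes from marker lists that hold none of the 4 genes. A cell was tenocyte-like when Fmod, Fibin, Cilp2, Chad, Comp, Thbs4, Kera and Col11a1, genes of the tendon matrix, gave its highest score, with at least 3 of them detected, and cells that also passed for another class were set aside as mixed. This gave 5296 tenocyte-like cells in 6 M WT (63.4% of kept cells), 2806 in 6 M DTR (42.8%) and 908 in 21 M B6 (18.9%), with a median of 7, 7 and 6 of the 8 markers detected. Median mitochondrial counts of these cells were 2.78%, 2.86% and 5.59%, and their median depths 12895.5, 12375.5 and 11086.5 UMIs; the part of either in the results below was not tested. Levels are UMIs summed over the cells of a class, scaled to 1000000 UMIs of that class (CPM). With 1 library per group there is no replicate check, so no difference was tested, and all intervals are exact 95% intervals for counting error only.

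All 4 genes were concentrated in tenocyte-like cells. Scx was counted at 91.6 CPM (89.3 to 93.8; 6515 UMIs) in tenocyte-like cells of 6 M WT, against 113 CPM (110.0 to 117; 4191 UMIs) in 6 M DTR and 73.0 CPM (68.0 to 78.3; 783 UMIs) in the 21 M B6 library. Mkx was at 53.1 CPM (51.4 to 54.8), 64.7 CPM (62.1 to 67.4) and 55.8 CPM (51.4 to 60.4), and Six2 at 31.7 CPM (30.4 to 33.1), 36.6 CPM (34.7 to 38.7) and 38.5 CPM (34.9 to 42.4). Tnmd was at 553 CPM (547 to 558), 614 CPM (606 to 622) and 481 CPM (468 to 494). The order of libraries therefore differed between genes, with 6 M DTR the highest for Scx, Mkx and Tnmd, while the Six2 intervals of 6 M DTR and 21 M B6 overlapped. The Mkx intervals of 6 M WT and of the 21 M B6 library also overlapped.

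Macrophage-like cells, which should lack these genes, give the background from free RNA. There Scx was at 1.57, 1.56 and 1.23 CPM, Mkx at 0.735, 0.586 and 0.411 CPM, Six2 at 0.420, 0.195 and 0.822 CPM and Tnmd at 3.99, 2.54 and 1.10 CPM. Every member was thus at least 46.9 times as high in tenocyte-like as in macrophage-like cells of the same library. Scx lies inside Bop1, a ribosome assembly gene on the opposite strand, so reads of either could be given to the other if strand were ignored. Bop1 stood at 24.0, 28.2 and 23.7 CPM in tenocyte-like cells and at 20.4, 23.1 and 13.3 CPM in macrophage-like cells, a pattern unlike that of Scx.

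**Figure D1:**
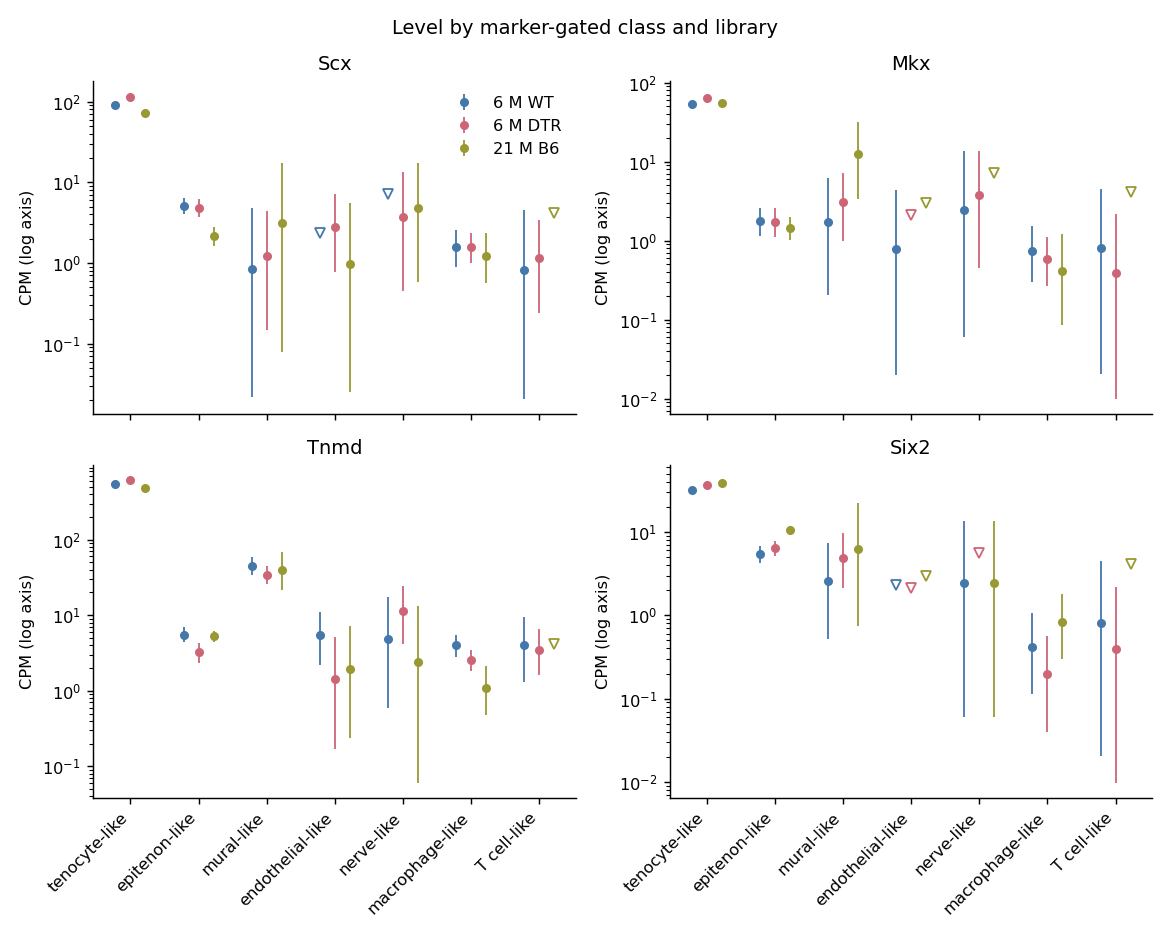
Level of each gene in CPM (log axis) in the marker-gated classes, with 1 point per library and bars for the exact 95% interval; an open triangle marks the level of 3 UMIs where a class had none. All 4 genes are highest in tenocyte-like cells of every library, Tnmd stands above its background in mural-like cells, and Six2 in epitenon-like cells is highest in 21 M B6.

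To compare shares of positive cells at equal depth, each cell was thinned to 2000 UMIs, which dropped 1 tenocyte-like cell, of 21 M B6. The share of tenocyte-like cells with Scx was then 15.1% (14.1 to 16.1) in 6 M WT, against 17.4% (16.0 to 18.8) in 6 M DTR and 12.8% (10.7 to 15.1) in the 21 M B6 library. Mkx was detected in 10.2%, 11.8% and 11.7%, Tnmd in 39.4%, 41.1% and 40.7% and Six2 in 6.38%, 6.95% and 7.5%. The largest difference from 6 M WT was −2.30 percentage points, for Scx in 21 M B6. Unthinned, the shares were 50.3%, 56.1% and 42.7% for Scx, 43.4%, 48.5% and 39.98% for Mkx, 64.1%, 63.3% and 68.0% for Tnmd and 30.2%, 32.8% and 30.7% for Six2. In macrophage-like cells the thinned shares reached at most 0.550% for Scx, 0.340% for Mkx, 0.200% for Six2 and 2.04% for Tnmd, at median depths of 13247.5 to 15827.5 UMIs. At 2000 UMIs, 44.6%, 41.5% and 42.9% of tenocyte-like cells carried none of the 4 transcripts, against 9.10%, 9.44% and 10.7% at full depth, and all 4 were found together in 6.68%, 10.1% and 4.96% at full depth.

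The comparison of 6 M DTR with 6 M WT asks what tenocytes carry after the Scleraxis lineage has been depleted. Over all kept cells every member was lower in 6 M DTR, with ratios of 0.870 (0.838 to 0.903) for Scx, 0.849 (0.808 to 0.892) for Mkx, 0.773 (0.761 to 0.786) for Tnmd and 0.853 (0.801 to 0.908) for Six2. Within tenocyte-like cells every member was higher, with ratios of 1.24 (1.19 to 1.29) for Scx, 1.22 (1.16 to 1.28) for Mkx, 1.11 (1.09 to 1.13) for Tnmd and 1.15 (1.08 to 1.24) for Six2. The direction thus turned for all 4 genes once cells were compared within the class, whose share of kept cells was 0.676 times that of 6 M WT. In the sum over all cells, fewer cells of a type and less RNA per cell cannot be told apart. The library whose Scx-lineage cells were targeted did not have the lowest Scx level: tenocyte-like cells of 6 M DTR held Scx in the largest share of cells and at the highest level of the 3 libraries. None of the 4 genes passed 2-fold, where 2.0% of the 5495 genes tested (at least 20 CPM in either library) were past 2-fold higher and 1.57% past 2-fold lower. The median log2 ratio of the 4 genes was 0.25, beside 0.02 over all genes.

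The comparison of 21 M B6 with 6 M WT addresses natural aging. Over all kept cells Scx, Mkx and Tnmd were lower in 21 M B6, with ratios of 0.257 (0.241 to 0.275), 0.319 (0.294 to 0.345) and 0.258 (0.251 to 0.265), and Six2 was less far below, at 0.618 (0.572 to 0.667). The share of tenocyte-like cells was 0.299 times that of 6 M WT. Within tenocyte-like cells the ratios lay nearer to 1, at 0.798 (0.740 to 0.859) for Scx, 1.05 (0.962 to 1.15) for Mkx, 0.871 (0.845 to 0.896) for Tnmd and 1.21 (1.09 to 1.35) for Six2. Again none was past 2-fold, with 3.36% of 5294 genes past 2-fold higher and 1.91% past 2-fold lower. The median gene itself stood at a log2 ratio of −0.25 in this comparison. Relative to that median, Scx lay at −0.08, Tnmd at 0.05, Mkx at 0.32 and Six2 at 0.53 on the log2 scale, so the lower CPM of Scx and Tnmd was close to the shift of all genes, and with TMM scaling, which put the median gene at −0.03, Tnmd stood at 0.02. Between 21 M B6 and 6 M DTR, which share neither treatment nor age, Scx had the lowest ratio at 0.644 (0.596 to 0.695), followed by Tnmd at 0.784 (0.760 to 0.808), Mkx at 0.862 (0.787 to 0.943) and Six2 at 1.05 (0.939 to 1.17). Here 3.96% of 5461 genes were past 2-fold higher and 5.04% lower, and the median gene stood at −0.28, so that Scx lay 0.36 below it (−0.36) and Six2 0.35 above it.

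**Figure D2:**
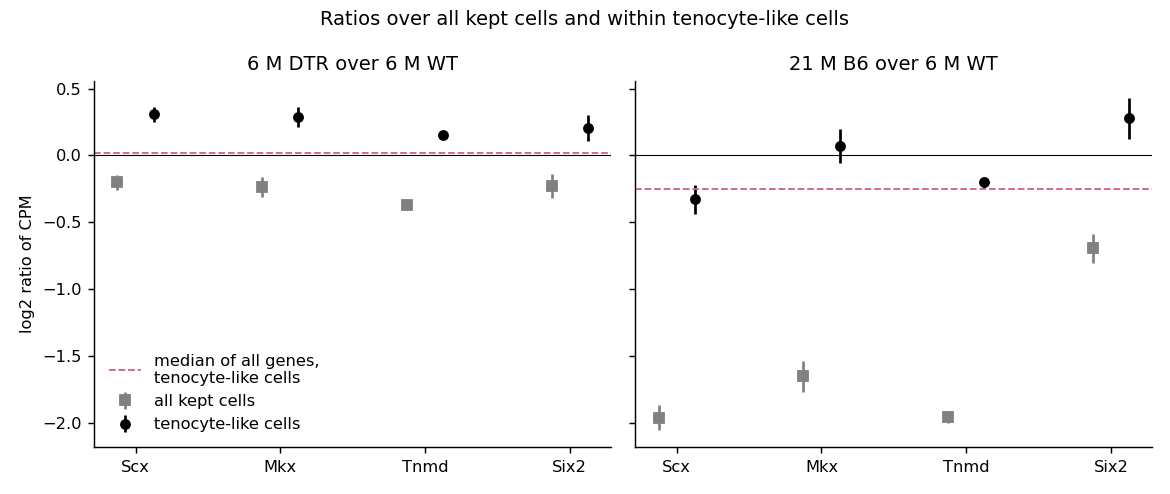
Log2 ratio of CPM of each gene against 6 M WT, over all kept cells (squares) and within tenocyte-like cells (circles), with exact 95% intervals; the dashed line is the median of all genes tested in tenocyte-like cells. All 8 squares lie below 0, the circles of 6 M DTR lie above 0, and in 21 M B6 Scx (−0.33) and Tnmd (−0.20) lie near the dashed line at −0.25.

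Six2 differed from the other members in where its transcripts were found. Tenocyte-like cells held 89.96% of all Six2 UMIs of kept cells in 6 M WT, against 83.6% in 6 M DTR and 46.0% in the 21 M B6 library, while they still held 74.3%, 80.4% and 84.2% of the Scx, Mkx and Tnmd UMIs in 21 M B6. Epitenon-like cells, fibroblasts gated on Ccn3, Efemp1, Pi16, Krtdap, Clec3b, Dpp4 and Dpt, held 3.03%, 5.49% and 31.4% of Six2 UMIs. Their number was 895 in 6 M WT, against 880 in 6 M DTR and 1779 in the 21 M B6 library, so both a larger class and a higher level entered. These shares also depend on the number of tenocyte-like cells, which was 5296, 2806 and 908. The part of each was not tested. Six2 in epitenon-like cells was at 5.38 CPM (4.24 to 6.74; 76 UMIs) in 6 M WT, against 6.41 CPM (5.15 to 7.89; 89 UMIs) in 6 M DTR and 10.5 CPM (9.29 to 11.8; 282 UMIs) in the 21 M B6 library. The ratio of 21 M B6 to 6 M WT was 1.95 (1.51 to 2.54). That of 6 M DTR to 6 M WT was 1.19 (0.867 to 1.64), whose interval includes 1. After thinning to equal depth, Six2 was found in 1.01%, 1.59% and 1.85% of epitenon-like cells (9, 14 and 33 cells). The share in 21 M B6 differed from that in 6 M WT by 0.846 percentage points (−0.22 to 1.77), an interval that includes 0. Taking epitenon-like cells from clusters instead of the gate left the log2 ratio of 21 M B6 to 6 M WT at 0.55, against 0.96.

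No other member was higher in epitenon-like cells of 21 M B6 than in those of 6 M WT. Scx was at 5.10 CPM in 6 M WT, against 4.83 CPM in 6 M DTR and 2.16 CPM in the 21 M B6 library, a ratio of 0.423 (0.294 to 0.606) for 21 M B6 against 6 M WT. Of the 72 Scx UMIs in 6 M WT, 17 came from a single cell, against at most 4 per cell in 21 M B6. The interval for counting error does not cover this. Mkx was at 1.77, 1.73 and 1.45 CPM, with intervals that overlap those of macrophage-like cells in each library. Tnmd was at 5.52, 3.24 and 5.28 CPM, and only in 21 M B6 did its interval (4.44 to 6.22) lie apart from that of macrophage-like cells (0.473 to 2.16). For 21 M B6 against 6 M WT the ratios were 0.819 (0.483 to 1.41) for Mkx and 0.955 (0.720 to 1.28) for Tnmd. Both intervals include no difference. For 6 M DTR against 6 M WT the ratio of Tnmd in epitenon-like cells was 0.587 (0.397 to 0.858). Tenocyte gate markers were also present in these cells, at a summed 1864, 1491 and 1141 CPM against 156, 139 and 78.3 CPM in macrophage-like cells. Per 1000 UMIs of those markers without Kera and Col11a1, Six2 had 1.67, 1.67 and 2.12 UMIs in tenocyte-like cells and 2.89, 4.31 and 9.19 in epitenon-like cells. Scx had 2.74, 3.24 and 1.89 in epitenon-like cells on the same scale. Six2 in epitenon-like cells thus stood at 1.73, 2.58 and 4.34 times its tenocyte-like proportion. Tenocyte-like cells were selected on these same markers, and epitenon-like cells that also passed the tenocyte gate were set aside. This selection by itself can raise such a proportion outside tenocyte-like cells, so these multiples do not measure Six2 apart from the gate. Macrophage-like cells had 2.72, 1.42 and 10.5 Six2 UMIs on this scale, from 4, 3 and 6 UMIs. They had 10.2, 11.4 and 15.8 Scx UMIs, against 4.81, 5.16 and 4.02 in tenocyte-like cells, so the background itself departed from the tenocyte-like proportion. The part of free RNA in the epitenon-like values was not tested.

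**Figure D3:**
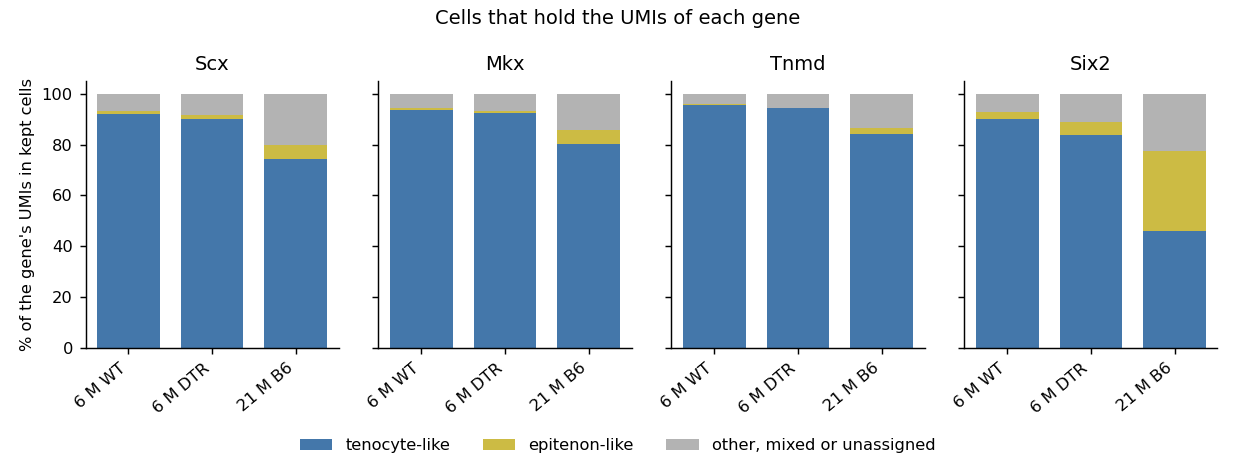
Share (%) of each gene's UMIs in kept cells that lay in tenocyte-like cells, epitenon-like cells, and all other, mixed or unassigned cells, with 1 bar per library. In 21 M B6 epitenon-like cells hold 31.4% of Six2 UMIs and 5.50% or less of those of Scx, Mkx and Tnmd.

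Tnmd was also found in mural-like cells, the contractile cells of vessel walls gated on Rgs5, Myh11, Notch3, Kcnj8, Abcc9, Myl9 and Acta2. It was at 45.1 CPM (33.8 to 59.0; 53 UMIs in 142 cells) in 6 M WT, against 33.9 CPM (25.6 to 44.2; 55 UMIs in 191 cells) in 6 M DTR and 40.1 CPM (21.4 to 68.6; 13 UMIs in 36 cells) in the 21 M B6 library. These intervals overlap between the libraries and lie far above the 3.99, 2.54 and 1.10 CPM of macrophage-like cells. Per 1000 UMIs of tenocyte gate markers, again without Kera and Col11a1, Tnmd had 200, 166 and 394 UMIs in mural-like cells. These proportions rest on only 265, 331 and 33 gate UMIs. Their intervals, for the count of Tnmd alone, were 150 to 262, 125 to 216 and 210 to 674. Tnmd had 29.0, 27.9 and 26.5 in tenocyte-like and 25.9, 18.5 and 14.1 in macrophage-like cells. The Tnmd proportion of mural-like cells was thus above that of both other classes in every library, whereas for Scx the macrophage-like proportion given above was itself higher than the tenocyte-like one. Selection of tenocyte-like cells on these markers bears on comparisons with their proportions here too. Mural-like cells held 1, 2 and 1 UMIs of Scx, 2, 5 and 4 of Mkx and 3, 8 and 2 of Six2. These few UMIs were 7.55, 15.1 and 121 for Mkx and 11.3, 24.2 and 60.6 for Six2 per 1000 gate UMIs, also above their tenocyte-like proportions, though the lower limit for Mkx in 6 M WT was 0.914, against 2.79 in tenocyte-like cells. Six2 in mural-like cells of 6 M DTR was at 4.93 CPM (2.13 to 9.72), against 0.195 CPM (0.0403 to 0.571) in macrophage-like cells. Split by Kcnj8 and Abcc9, channel subunits of pericytes, the cells of 6 M WT without either held 83.5 CPM of Tnmd (48 UMIs in 60 cells) and those with at least 1 of them 8.34 CPM (5 UMIs in 82 cells). In 6 M DTR the values were 106 CPM (47 UMIs in 52 cells) and 6.78 CPM (8 UMIs in 139 cells). In 21 M B6 they were 39.6 CPM and 41.3 CPM, from 9 and 4 UMIs, too few to tell apart. This split was chosen after the mural values had been seen.

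Endothelial-like, T cell-like and nerve-like cells held few UMIs of any member. Scx had at most 4 UMIs in any of these classes and libraries, Mkx at most 2, Six2 at most 1 and Tnmd at most 9. Where a class had none, as for Scx in the 147 endothelial-like cells of 6 M WT, a level of up to 2.32 CPM is allowed by a floor of 3 UMIs. Muscle-like cells numbered 10, 51 and 40. Scx was counted in them at 11.1 CPM (0.281 to 61.8; 1 UMI), 16.7 CPM (6.70 to 34.4; 7 UMIs) and 27.8 CPM (13.3 to 51.1; 10 UMIs), and Six2 at 7.15 CPM (1.47 to 20.9; 3 UMIs) in 6 M DTR and 16.7 CPM (6.12 to 36.3; 6 UMIs) in 21 M B6, with no Six2 UMI in 6 M WT. Mkx and Tnmd had at most 2 UMIs in muscle-like cells of any library. Gdf10 fibroblast-like cells numbered only 13, 3 and 27, and the 29 Tnmd UMIs seen there in 21 M B6 included 16 from a single cell.

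Among tenocyte-like cells the UMIs of Tnmd and Scx were spread more unevenly than those of most genes of like mean. Tnmd had a mean of 7.43 UMIs per cell in 6 M WT, against 8.09 in 6 M DTR and 5.68 in the 21 M B6 library, yet 35.9%, 36.7% and 32.0% of tenocyte-like cells had no Tnmd UMI, and the median was 2 UMIs in each library. The 10% of cells with the most Tnmd held 51.8%, 52.6% and 47.7% of its UMIs, with up to 131, 185 and 66 UMIs in a cell. Cells with more than 20 Tnmd UMIs made up 12.0%, 12.7% and 6.28%. In thinned counts the variance over the mean (Fano factor) of Tnmd was 3.70, 4.09 and 2.67, against a median of 1.52, 1.59 and 1.53 over genes of like mean, and 13 of 78, 8 of 99 and 15 of 94 of those genes lay above it. These are 16.7%, 8.08% and 15.96% of the genes of like mean. For Scx the Fano factors were 1.44, 1.55 and 1.20, against medians of 1.06 in each library, and 31 of 637, 23 of 537 and 97 of 682 genes of like mean lay above it, or 4.87%, 4.28% and 14.2%. Mkx and Six2 stayed between 1.03 and 1.09, beside medians of 1.03 to 1.06, with 20.9%, 63.2% and 56.1% of such genes above Mkx and 15.5%, 58.2% and 28.7% above Six2. The Fano factor rises with the mean, so it is set only beside genes of like mean and not between members.

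**Figure D4:**
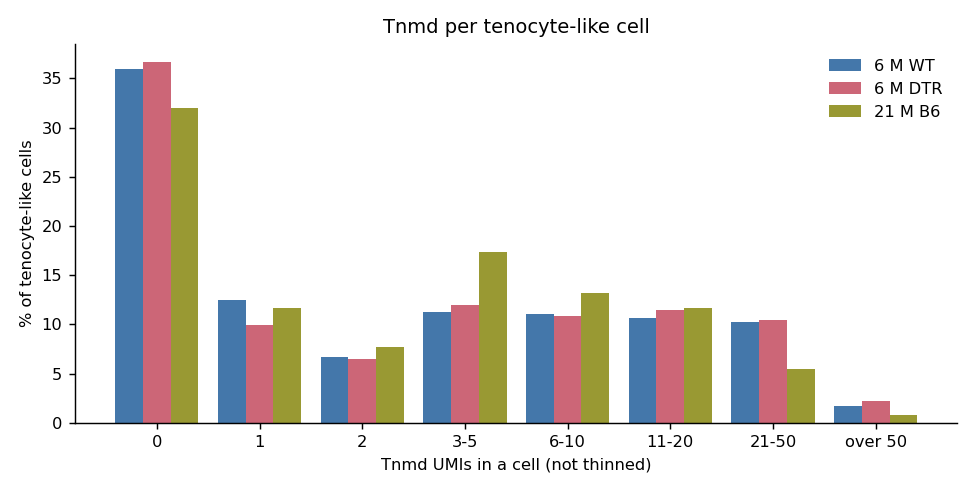
Share (%) of tenocyte-like cells by the number of Tnmd UMIs in the cell, unthinned, with 1 bar per library. The tallest bars are at 0 UMIs (32.0% to 36.7%), and the bars for 21 to 50 UMIs stand at 10.3%, 10.4% and 5.51%, in the order of the key.

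The level of Tnmd differed between subsets of tenocyte-like cells defined by other genes. How much of its uneven spread lies between these subsets was not tested. Cells with at least 2 of Slurp1 (a secreted Ly6 family protein), Serpinb7 (a serpin) and Vcan (versican, a large proteoglycan) were 29.4% of tenocyte-like cells in 6 M WT, against 17.5% in 6 M DTR and 10.4% in the 21 M B6 library. In them Tnmd was at 177, 133 and 90.1 CPM, against 730, 738 and 531 CPM in the other tenocyte-like cells, which are ratios of 0.242 (0.235 to 0.2504), 0.181 (0.169 to 0.192) and 0.170 (0.139 to 0.205). Scx went the other way: it was at 105, 122 and 105 CPM inside and 85.1, 111 and 68.9 CPM outside, with ratios of 1.24 (1.18 to 1.30), 1.09 (1.02 to 1.18) and 1.52 (1.249 to 1.84). Mkx was lower inside at ratios of 0.846, 0.720 and 0.679, and Six2 at 0.848, 0.905 and 0.881, where the intervals of 6 M DTR and 21 M B6 include 1. The subset was thus low in Tnmd and not low in Scx in every library. Its cells were deeper, with median depths of 13871, 14692.5 and 12299 UMIs against 12381, 11886 and 10903. Since the share of the subset differed between libraries, so did the Tnmd comparison without it: outside the subset the log2 ratio of Tnmd was 0.02 for 6 M DTR and −0.46 for 21 M B6 against 6 M WT, compared with 0.15 and −0.20 in all tenocyte-like cells.

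A second subset, with at least 2 UMIs of Ucma, a Gla-rich protein of cartilage, was 10.99%, 3.06% and 6.50% of tenocyte-like cells. Tnmd was higher in it, at 1033, 888 and 792 CPM against 486, 604 and 460 CPM, with ratios of 2.13 (2.08 to 2.18), 1.47 (1.39 to 1.56) and 1.72 (1.58 to 1.88). Six2 was higher as well, with ratios of 1.56 (1.40 to 1.74), 1.46 (1.13 to 1.86) and 1.51 (1.06 to 2.11). Scx was higher by 1.10, 1.22 and 1.40 times, and Mkx ratios of 1.00, 1.30 and 1.18 had intervals that include 1 except in 6 M DTR. Cells with at least 2 of Saa1, Saa2 and Lcn2, genes of the acute-phase response, were 15.1%, 4.10% and 5.51% of tenocyte-like cells. In them Scx was lower, at ratios of 0.643 (0.596 to 0.692), 0.844 (0.726 to 0.976) and 0.731 (0.510 to 1.02), the last of which includes 1. Tnmd had no common direction there, with ratios of 0.939, 0.652 and 1.11. Cells with both Igfbp3 and Scn7a were only 4, 8 and 2 and are not described.

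**Figure D5:**
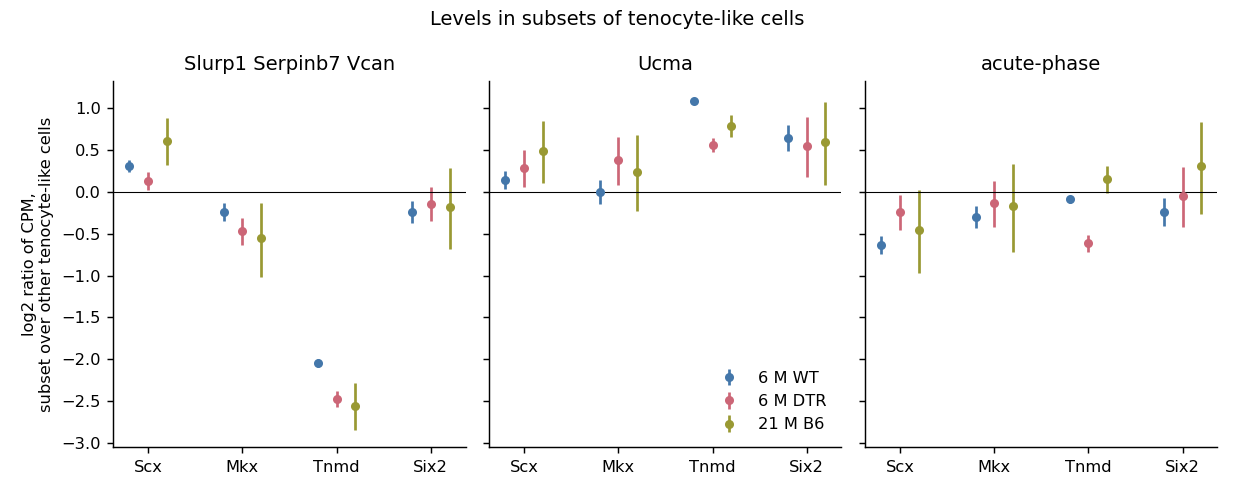
Log2 ratio of CPM of each gene in a subset of tenocyte-like cells over the other tenocyte-like cells, with exact 95% intervals and 1 point per library. In the Slurp1 Serpinb7 Vcan subset the Tnmd points lie below −2 and the Scx points above 0, in the Ucma subset Tnmd and Six2 lie above 0, and in the acute-phase subset Scx lies below 0.

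Thinned tenocyte-like cells with and without a Tnmd UMI were also compared, which reads the same association from the side of Tnmd. The cells are the same, so Slurp1 and Vcan below are no separate evidence for the subset they define. Among 2213 genes compared, those highest in Tnmd-positive cells in all 3 libraries were Kera (keratocan, a gate marker and small leucine-rich proteoglycan), Ppic (cyclophilin C), Mmp2 (a matrix metalloproteinase), Col1a1, Col1a2, Aebp1, Thbs4 (a gate marker) and Cpxm2. Kera was at 59.2, 80.7 and 74.5 CPM with Tnmd and 7.63, 8.17 and 17.7 CPM without it. Col1a1, the main fibril collagen of tendon, was at 9609, 7738 and 3091 CPM with Tnmd and 3479, 3515 and 1518 CPM without it. Lowest were Slurp1, Vcan, Cd55, Msx1 (a homeobox factor), Thbd, Serpine2, Slc29a1 and Htra3, with Msx1 at 23.5, 19.1 and 16.3 CPM against 68.6, 69.0 and 67.8 CPM. Genes entered this ranking where either group of cells reached a set level in every library. Kera and Cpxm2 entered in some or all libraries only through the cells with Tnmd. Slurp1, Vcan, Cd55, Msx1 and Thbd entered in some or all libraries only through those without it. In 21 M B6, for example, Slurp1 was at 8.13 CPM and Vcan at 39.3 CPM with Tnmd, against 145 and 132 CPM without it. The ranks of all these genes depend in part on that choice. Of the 8 tenocyte gate markers 6 were higher in Tnmd-positive cells in all 3 libraries, among them Fmod (fibromodulin) at log2 differences of 1.11, 1.08 and 0.65, Col11a1 at 1.07, 1.53 and 0.40 and Cilp2 at 0.75, 0.59 and 0.55. The other two were Comp, at −0.23, −0.34 and −0.03, and Chad, at 0.14, −0.02 and 0.03.

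The same comparison for Scx, among 2226 genes, gave smaller differences. Lowest in Scx-positive cells in all 3 libraries were Saa3 and Saa1 (serum amyloid A proteins), Ifi205, Steap4, Tm4sf1, Tlr2 (a toll-like receptor), Ccl7 (a chemokine) and Nfkb1 (a subunit of NF-kappa B), with Saa3 at 257, 72.9 and 147 CPM with Scx and 615, 153 and 357 CPM without it. Highest were Snhg18, Ccn1, Pfdn6, Hes1, Scd2, Slurp1, Col1a1 and Kpnb1, with log2 differences of 0.31 to 1.28. The named genes were picked as the extremes of the 2226 genes, and no interval was computed for their differences. Here too a gene entered where either group of cells reached the set level in every library. Kpnb1 and Scd2 entered in some or all libraries only through the cells with Scx, with Scd2 at 69.0 against 27.8 CPM in 21 M B6. Ifi205 entered in some libraries only through the cells without Scx. The ranks of these genes depend in part on that choice. Scx-positive cells numbered 799, 487 and 116. In the 116 of 21 M B6, Kpnb1 was at 56.0 CPM, against 44.9 CPM without Scx. Whether differences as small as this exceed counting error was not tested. Tnmd itself was 0.32, 0.24 and 0.27 higher in Scx-positive cells on the log2 scale.

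Joint detection of Scx and Mkx in thinned cells was close to what their separate shares give, while pairs with Tnmd departed from this in some libraries. Tnmd was found in 40.8%, 47.0% and 42.2% of Scx-positive cells and in 39.2%, 39.8% and 40.5% of Scx-negative cells. Mkx was found in 10.3%, 12.7% and 13.8% of Scx-positive cells and in 10.2%, 11.6% and 11.4% of Scx-negative cells. Scx was found in 15.6%, 19.9% and 13.3% of Tnmd-positive cells, Mkx in 11.9%, 12.7% and 10.6%, and Six2 least often, in 7.57%, 8.41% and 8.40%. In Tnmd-negative cells Scx was found in 14.7%, 15.6% and 12.5% and Mkx in 9.10%, 11.3% and 12.5%. Six2 was found in 5.61%, 5.93% and 6.88% of Tnmd-negative cells, a ratio of 1.35, 1.42 and 1.22. The intervals with and without Tnmd lay apart for Scx in 6 M DTR (17.6 to 22.3 against 13.9 to 17.4). They also lay apart in 6 M WT for Mkx (10.6 to 13.4 against 8.13 to 10.1) and for Six2 (6.47 to 8.79 against 4.84 to 6.46). At this depth most positive cells hold a single UMI of a transcription factor, which limits what joint detection can show.

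Across 20 points, each a class of at least 50 cells in 1 library, the pattern of Mkx and Tnmd was alike, with a Pearson correlation of 0.95 of log2(CPM + 1). The points share libraries and differ mostly by class, so the values only describe likeness. Among 10079 genes Mkx was the gene most like Tnmd, followed by Chad, Cilp2, Lox (lysyl oxidase, which cross-links collagen) and Fmod at 0.92 to 0.95, while Thbs4, Fmod, Cilp2 and Chad stood before Tnmd in the list for Mkx at 0.95 to 0.97. Scx was most like Ecrg4, Thbs4, Angptl7, Itgbl1 and Col8a2 at 0.91 to 0.94, and Mkx came at rank 11 and Tnmd at rank 44. Six2 was most like Pamr1, Mettl24, Cth, Pdgfrl and Fbln1 (fibulin 1) at 0.91 to 0.92, none of which is a gate marker of tenocytes, and its ranks for Mkx, Scx and Tnmd were 51, 89 and 121.

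Other genes of the pathway were read in the same tenocyte-like cells, in 4 lists. Beside their counts stand the shares of all genes tested. Against 6 M WT these were 2.0% past 2-fold higher and 1.57% lower in 6 M DTR, and 3.36% higher and 1.91% lower in 21 M B6. For 21 M B6 against 6 M DTR, 5.04% were past 2-fold lower. Of 15 transcription factors of tendon and limb, 5 were tested in 6 M DTR against 6 M WT; Egr2, a zinc finger factor acting on tendon collagen genes, was past 2-fold higher (38.9 against 17.3 CPM) and none lower, with a list median log2 ratio of 0.77 beside 0.02 for all genes. Egr1 was at 716 CPM in 6 M WT, against 1305 CPM in 6 M DTR and 1350 CPM in the 21 M B6 library. In the 21 M B6 library 6 of the list were tested, and Egr2 alone was past 2-fold from 6 M WT, higher at 37.5 CPM. In epitenon-like cells Egr1 was at 900, 1082 and 1723 CPM. Egr2 was at 192, 197 and 34.4 CPM in macrophage-like cells. Neither gene was thus particular to tenocyte-like cells.

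Of 9 partners and inhibitors of basic helix-loop-helix factors, 7 were tested. Id1 and Id3, which bind E proteins and keep them from factors such as Scx, were past 2-fold higher in 6 M DTR, Id1 at 189.8 against 67.2 CPM and Id3 at 1051 against 451 CPM, and none was lower. The median log2 ratio of the list was 0.59, beside 0.02 for all genes. In 21 M B6 none was past 2-fold from 6 M WT, with a median of 0.05 beside −0.25 for all genes, and Id1 was at 53.9 CPM and so past 2-fold lower than in 6 M DTR. The E protein gene Tcf4 was at 322, 466 and 325 CPM. Scx and its inhibitors Id1 and Id3 were thus all at their highest in 6 M DTR.

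Of 12 TGF-beta and GDF signals, which act upstream of Scx and Mkx, 9 were tested. Mstn (myostatin, a GDF family ligand) was at 13.1 CPM in 6 M WT, against 269 CPM in 6 M DTR and 38.5 CPM in the 21 M B6 library, and with Egr2 it was past 2-fold higher in both comparisons with 6 M WT. Its ratio of 20.5 (19.2 to 21.99) in 6 M DTR was far beyond that of any member. Tgfb3 and Tgfbr2 had ratios of 1.65 and 1.61 in 6 M DTR, below 2-fold. List medians were 0.22 for 6 M DTR and 0.04 for 21 M B6, beside 0.02 and −0.25 for all genes.

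Of 8 tendon matrix and target genes outside the gate, 6 were tested in 6 M DTR and 7 in 21 M B6. Lum (lumican), a small leucine-rich proteoglycan, was at 358, 975 and 332 CPM and so past 2-fold higher in 6 M DTR. Col1a1 was at 6208 CPM in 6 M WT, against 5787 CPM in 6 M DTR and 2313 CPM in the 21 M B6 library, and Col1a2 at 6287, 5561 and 2777 CPM, so both were past 2-fold lower in 21 M B6 while Tnmd stood at 0.871 and Scx at 0.798 of their levels in 6 M WT. Col14a1, a collagen associated with fibrils, was at 4.03, 7.12 and 29.2 CPM and past 2-fold higher in 21 M B6. In epitenon-like cells Col14a1 was far higher, at 157, 160 and 205 CPM. The part of epitenon RNA in the tenocyte-like values was not tested. Cnmd, the paralog of Tnmd, had at most 0.070 CPM in any library.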

How the data were processed

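FDL tendons were digested with collagenase, and single-cell libraries were made with 10x Genomics Chromium 3′ chemistry. The counts deposited by the authors are raw UMI counts per gene and barcode, without normalization, with at least 500 UMIs in every barcode. The matrix headers name Cell Ranger 6.0.1 while the submitters' processing notes name Cell Ranger 2.1.1, and the genome build was not given in the sources used here. Totals were 148149903, 123918145 and 92707026 UMIs for the 6 M WT, then the 6 M DTR and then the 21 M B6 library. Ages follow the study, while the labels give 3 months for the 6 M WT and 6 M DTR libraries.

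Cells were kept and gated as described in the report. The score of a class was the mean over its markers of ln(1 + counts per 10000), each divided by its 90th percentile among positive cells. A score of at least 0.25 was required, and 251, 203 and 107 kept cells of any label had a tenocyte score within 0.05 of that limit. Between 311 and 485 cells per library were mixed and 670 to 801 unassigned. No doublet caller was run; mixed cells were left out instead. CPM have exact Poisson, shares exact Clopper-Pearson and ratios exact conditional binomial 95% intervals. The members and lists were chosen with earlier results of these data known. List genes are named with values where at least 20 CPM and past 2-fold, with a few others for comparison chosen after their values were seen, and the 5 genes most like each member by correlation. The values of 1 list gene are not reported here. Subsets needed at least 2 of their genes, or 2 Ucma UMIs. The calculation of ratios was run on simulated Poisson counts of 5121 genes drawn from the 6 M WT profile, with 200 changed 2.5-fold or 4-fold. Of these, 100% passed 2-fold in the right direction for 6 M DTR and 100% for 21 M B6 against 6 M WT. The changes were set past that limit, and no spread between cells or libraries was simulated. The run thus checks the arithmetic only and says nothing about the smaller ratios of the members. Alternatives changed the filters, gate, thinning and scaling, the last by the TMM factors of edgeR 4.0.16 in R 4.3.3. Clusters were made with scanpy 1.11.5, and all else with scipy 1.17.1 and numpy 2.4.6 under Python 3.11.15.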

Additional observations from a re-analysis of the deposited data

Results flagged for a closer look

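Barcodes outside the filter of genes and mitochondrial counts also held UMIs of all 4 genes, above the level that 3 counts allow. None of these barcodes enters a main comparison of the report. Part of them enters the alternatives that lift the mitochondrial limit or the upper limit of genes. In the 7179 such barcodes of 6 M WT, Scx was at 30.7 CPM, Mkx at 13.7 CPM, Tnmd at 94.3 CPM and Six2 at 11.3 CPM. In the 9545 of 6 M DTR the values were 28.2, 12.2, 84.0 and 10.7 CPM, and in the 7475 of 21 M B6 they were 16.4, 8.49, 35.7 and 10.8 CPM. All 4 genes were lower there than over all kept cells of 6 M WT and 6 M DTR. In 21 M B6 Mkx, Tnmd and Six2 were lower too, while Scx was at 16.4 CPM against 16.0 CPM over all kept cells.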

How the results depend on the processing

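Of 118 values under alternatives, 89 stayed within the main interval, 28 moved beyond it and 1 reversed. A value was called reversed only where the main interval excluded 0. Signs also changed where it included 0. With clusters, the log2 ratio of Six2 in epitenon-like cells of 6 M DTR went from 0.25 to −0.15. In percentage points of positive cells, no thinning took Mkx in 21 M B6 from 1.47 to −3.47 and Tnmd in 6 M DTR from 1.68 to −0.758. Asking for at least 2 UMIs took Six2 in 6 M DTR from 0.567 to −0.0548. TMM scaling moved the median gene from 0.02 to −0.09 in 6 M DTR and from −0.25 to −0.03 in 21 M B6. It gave tenocyte-like log2 ratios against 6 M WT of 0.20 for Scx, 0.18 for Mkx, 0.0455 for Tnmd and 0.10 for Six2 in 6 M DTR, and of −0.10, 0.29, 0.0215 (reversed) and 0.50 in 21 M B6. For Tnmd in 21 M B6 the value was −0.15 with a mitochondrial limit of 5%, −0.15 with at least 5 tenocyte markers, −0.27 without an upper limit of genes and −0.46 without the Slurp1 Serpinb7 Vcan subset; in 6 M DTR it was 0.13 without the upper limit of genes, 0.0741 with clusters and 0.0164 without that subset. Scx was at −0.46 in 21 M B6 with the limit of 5% and at 0.39 in 6 M DTR without the subset, and Mkx at 0.21 in 6 M DTR with clusters. Six2 in epitenon-like cells of 21 M B6 was at 0.55 with clusters, and in 6 M DTR it ranged from −0.15 to 0.36. In percentage points of positive cells against 6 M WT, no thinning, which leaves depths unequal, gave 5.79 for Scx, 5.06 for Mkx, −0.758 for Tnmd and 2.54 for Six2 in 6 M DTR. In 21 M B6 it gave −7.61 for Scx and −3.47 for Mkx. Thinning to 4000 UMIs gave 4.71 for Scx and 5.49 for Mkx in 6 M DTR and −5.03 for Scx in 21 M B6, and asking for at least 2 UMIs gave 0.00561 for Mkx in 6 M DTR. The cause of the moves was not tested. Leaving out shared barcodes, leaving out the subset and the alternatives for Six2 in epitenon-like cells were chosen after seeing the data. No paired analysis was possible because each group has 1 library, and no replicate could be left out.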

Other observations

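Scx was also found in cells that no class took. In the 768 unassigned cells of 6 M WT it was at 25.7 CPM (22.6 to 29.2; 236 UMIs), in the 670 of 6 M DTR at 16.9 CPM (14.2 to 19.9; 141 UMIs) and in the 801 of 21 M B6 at 6.63 CPM (5.13 to 8.44; 66 UMIs). These are 28.1%, 14.9% and 9.08% of the tenocyte-like levels of Scx, and Six2 stood at 30.6%, 15.7% and 22.2% of its own. Mkx stood at 13.8%, 5.55% and 7.03%, and Tnmd at only 2.21%, 1.87% and 1.23%. In these cells Tnmd, at 12.2, 11.5 and 5.93 CPM, was thus the member with the lowest level relative to tenocyte-like cells, while Mkx, at 7.30, 3.59 and 3.92 CPM, had the lowest CPM. The unassigned cells are a remainder and not a cell type.

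Scx and Six2 were counted in cells with genes of muscle progenitors, a set chosen after the values were seen. Among muscle-like and unassigned cells with at least 2 of Pax7, Myf5 and Myod1, the transcription factors of muscle stem cells and myoblasts, Scx was found in 4 of 38 cells in 6 M WT (14.2 CPM, 5.23 to 31.0), in none of 41 cells in 6 M DTR and in 6 of 52 cells in 21 M B6 (15.9 CPM, 6.85 to 31.3). Six2 was found in 1, 0 and 6 of these cells, the last at 13.9 CPM (5.59 to 28.6). Tnmd was found in 1, 3 and 0 of them. In macrophage-like cells of 21 M B6 Scx was at 1.23 CPM and Six2 at 0.822 CPM. The 0 of 41 cells in 6 M DTR allow a share of cells with a Scx UMI of up to 7.32% by the floor of 3 counts, and the 51 muscle-like cells of that library had 7 Scx UMIs.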
